A study of Mus musculus with 10 samples.

Results

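Iron reaches the body through the epithelium of the proximal small intestine, and the accessibility of chromatin at 7 genes of that route was compared between wild-type (WT) and Zip14 (Slc39a14) knockout (KO) mice. The genes were Slc11a2, Slc40a1, Tfrc, Cybrd1, Fth1, Ireb2 and Epas1, taken by their Ensembl gene IDs, and every peak that the deposited count table assigns to those IDs was used, which gave 56 peaks of the 245885 with a gene ID and 7 of 44580 gene IDs. Intestinal epithelial cells (IECs) from 5 WT mice (WT1 to WT5) and 5 global KO mice (KO6 to KO10) had been purified by flow cytometry and profiled by the assay for transposase-accessible chromatin with sequencing (ATAC-seq), in which a transposase cuts open chromatin and the fragments falling in each called peak are counted. The labels place the cells in the duodenum and give the genotype as the sole difference, while the study's methods name the duodenum and the upper jejunum as the source of the IECs. Per the study's methods, the KO allele is a targeted deletion within Zip14 carried in every tissue, and the animals were young adult females unless stated otherwise. Crosses of heterozygous mice produced both the WT and the KO strain, and whether the mice used here were littermates is not stated. The loss of Zip14 in organs other than the intestine, and in cells other than epithelium, is therefore part of the KO condition. The study counts its ATAC-seq samples as mice, but the labels do not state that each library came from a separate animal, so p-values measure the spread between these 10 libraries.

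Dietary ferric iron is reduced at the brush border of the enterocyte and carried inward as ferrous iron. Inside the cell it is either stored in ferritin, and lost when the cell is shed, or exported to the blood at the basolateral membrane. Iron regulatory proteins bind messenger RNAs of this system when iron is scarce, and the hypoxia-inducible factor HIF-2 alpha raises transcription of the duodenal uptake genes when iron or oxygen is low. ZIP14 itself carries zinc, iron and manganese across membranes.

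RefSeq promoter windows of build GRCm38.p6 were listed for 4 of the 7 genes, namely Tfrc, Cybrd1, Fth1 and Ireb2, with 6 windows in all. The windows of Tfrc, Fth1 and Ireb2 are printed because pairs of these genes had the highest correlations of summed counts across the mice among the 7 genes, which fell for some pairs with other scaling or fewer mice, as given with those values. Each line gives the 250 bases before a start on the plus strand, 5′ to 3′. The capitals mark matches, on either strand, to 6 motifs: the hypoxia response core ACGTG, the metal response elements TGCACNC and TGCGCNC, the antioxidant response core TGACNNNGC, the GC box GGGCGG and the TATA box TATAAA. For Fth1, the downstream one of its listed starts is shown.
Tfrc, upstream start, chr16:32608646-32608895: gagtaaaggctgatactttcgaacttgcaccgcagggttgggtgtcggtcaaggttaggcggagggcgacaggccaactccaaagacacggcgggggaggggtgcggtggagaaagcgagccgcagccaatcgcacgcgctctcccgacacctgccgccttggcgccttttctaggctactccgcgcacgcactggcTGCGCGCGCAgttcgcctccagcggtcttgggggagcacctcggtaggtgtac
Tfrc, downstream start, chr16:32608872-32609121: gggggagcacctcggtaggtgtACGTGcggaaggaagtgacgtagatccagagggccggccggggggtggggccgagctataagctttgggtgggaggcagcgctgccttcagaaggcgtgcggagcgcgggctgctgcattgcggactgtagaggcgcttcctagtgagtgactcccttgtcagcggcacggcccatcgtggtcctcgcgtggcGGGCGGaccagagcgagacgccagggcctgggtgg
Fth1, downstream start, chr19:9982396-9982645: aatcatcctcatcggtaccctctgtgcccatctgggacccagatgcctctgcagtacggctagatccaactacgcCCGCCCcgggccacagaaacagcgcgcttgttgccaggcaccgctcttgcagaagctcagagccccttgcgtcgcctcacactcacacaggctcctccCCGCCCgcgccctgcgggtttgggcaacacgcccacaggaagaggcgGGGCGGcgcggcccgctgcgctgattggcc
Ireb2, chr9:54863505-54863754: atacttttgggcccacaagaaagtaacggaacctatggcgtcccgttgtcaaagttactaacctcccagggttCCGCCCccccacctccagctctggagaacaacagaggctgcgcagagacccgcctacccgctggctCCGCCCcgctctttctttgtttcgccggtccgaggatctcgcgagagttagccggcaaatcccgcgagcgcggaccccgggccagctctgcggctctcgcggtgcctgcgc
In the window of the downstream Tfrc start, the hypoxia response core lay at bases 23 to 27 of the window and a GC box at bases 216 to 221. The window of the upstream Tfrc start held 2 overlapping matches to TGCGCNC, 1 on each strand, at bases 198 to 204 and 201 to 207. The Fth1 window held 3 GC boxes, the Ireb2 window 2, and the Cybrd1 window (chr2:71117804-71118053) also 2. Of all 32851 promoter windows, 16.6% held ACGTG, 12.5% TGCGCNC and 32.7% GGGCGG in their 250 bases. A match describes letters in the window, and no binding was measured.

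Library totals ran from 5169108 to 15671557 counts in WT (median 8605355) and from 4690971 to 6043771 in KO (median 5617646). The 7 genes together took 0.0364% to 0.0448% of the counts of a library. A single peak took 5.69% to 14.5% of the counts. The genotype labels were checked at ENSMUSG00000022094, a gene ID that lies in the file between Stc1 and Pcdh17 on chromosome 14, the interval that holds Slc39a14. Its peak 3, picked after its values were seen, held 17, 8, 21, 11 and 16 counts across WT1 to WT5, against 0 in every KO library. The other 7 peaks of this ID held counts in every KO library, such as 22 to 31 at peak 1 and 25 to 51 at peak 8, so the check rests on that 1 peak. Peak positions and lengths were not used here, so peaks are numbered in file order within a gene, and levels are not compared between genes. Values are CPM, the standard library-size-scaled count, after trimmed mean of M-values (TMM) scaling, and fold changes are log2, KO over WT. The markers of the labelled epithelium, and of other cell types a sort could hold, could not be paired with gene IDs and were not analysed here.

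Of the 7 genes, 0 passed an adjusted p of 0.05 in edgeR's quasi-likelihood test on the summed counts of a gene, in a table where 3.91% of 36715 tested gene sums passed. With DESeq2 the count was also 0, where 6.43% of all gene sums passed. At an unadjusted p under 0.05, 1 of the 7 was lower in KO, Ireb2, and 0 were higher, against 11.8% lower and 15.7% higher of all gene sums. That count moved with single mice: 0 were lower without KO6 or KO10, 2 without WT4 or KO7 and 3 without KO8, and Slc11a2 was higher without WT1 or KO9. The 1 lower gene was Fth1 without WT2 and Slc40a1 without WT3 or KO9, where Ireb2 had unadjusted p-values of 0.0812, 0.108 and 0.0731 in edgeR. Without 1 mouse, 19.2% to 30.1% of all gene sums were under 0.05 in either direction. With DESeq2 2 were lower, Ireb2 and Fth1 (unadjusted p = 0.0224 for Fth1), and with 1 surrogate variable Slc11a2 was higher beside a lower Ireb2 (unadjusted p = 0.0350 for Slc11a2). The shares of all gene sums under 0.05 in either direction were 25.4% with DESeq2 and 22.3% with 1 surrogate variable. In none of the 7 genes were the WT and KO mice fully separated, where 3.18% of all gene sums had every KO mouse above every WT mouse and 2.84% every KO mouse below. Whether more cells carry an open site or each cell opens it more cannot be told apart in such bulk counts.

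**Figure D1:**
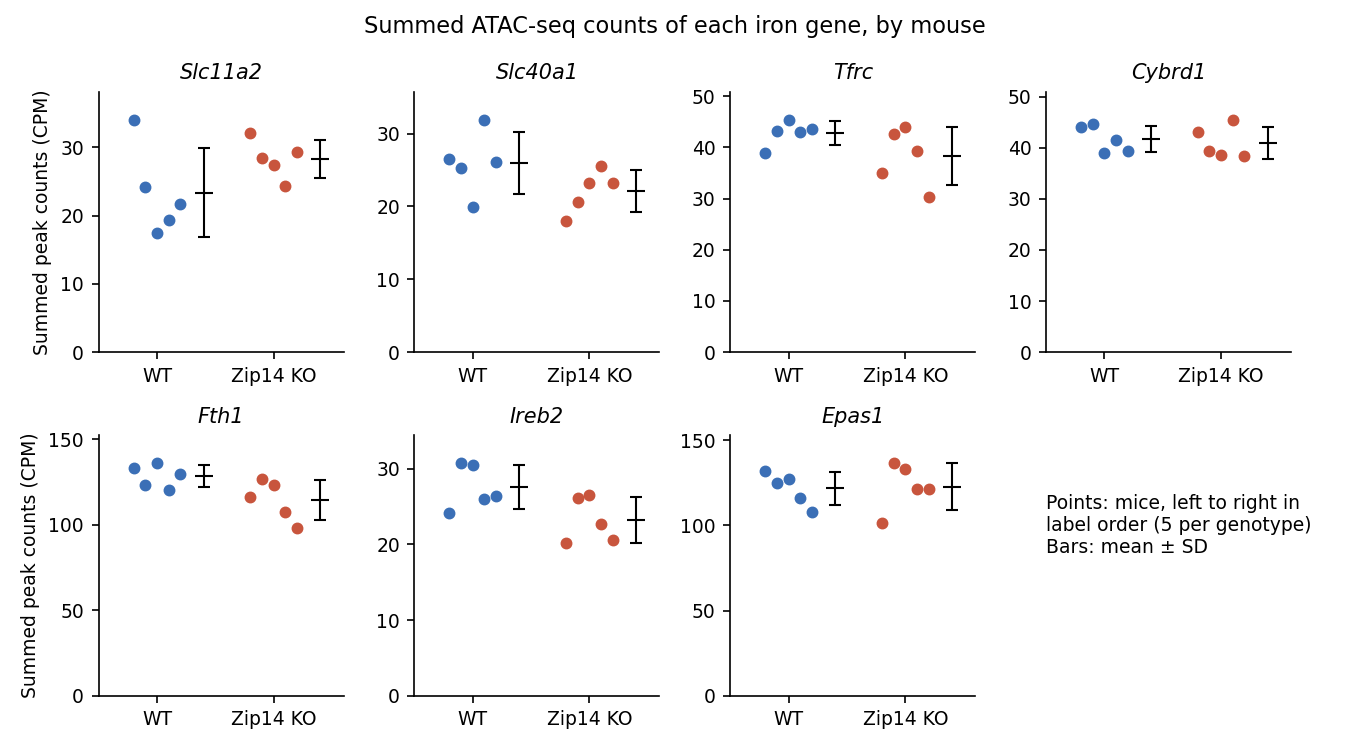
Summed ATAC-seq counts (CPM, vertical axes from 0) of each of the 7 genes in 5 WT and 5 Zip14 KO mice; points are mice in label order and bars are mean ± SD. The genotypes overlap in every panel, and the highest Slc11a2 value, 34.0 CPM, belongs to WT1.

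Slc11a2 (ENSMUSG00000023030, chromosome 15, 100387898 to 100424209) encodes DMT1, the apical importer of ferrous iron. Its summed counts were 34.0, 24.2, 17.4, 19.3 and 21.6 CPM in WT1 to WT5. In KO6 to KO10 they were 32.1, 28.4, 27.4, 24.4 and 29.3 CPM. All 5 KO mice were above 4 of the 5 WT mice, and WT1 was above all of them. The means were 23.3 ± 6.49 CPM in WT and 28.3 ± 2.81 CPM in KO (SD, n = 5 each), a log2 fold change of 0.29 (SE 0.146, 95% interval -0.018 to 0.60). The edgeR adjusted p was 0.206, and the exact two-sided permutation p was 0.119, where 0.00794 is the smallest that 5 against 5 allows. With 1 mouse left out, the log2 fold change ran from 0.20 without WT3 (edgeR adjusted p = 0.391) to 0.46 without WT1 (edgeR adjusted p = 0.0443). In the fit without WT1, 3.42% of all gene sums passed. It was the single case in which a gene sum of the 7 passed when 1 mouse was left out.

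Cybrd1 (ENSMUSG00000027015, chromosome 2, 71118054 to 71142926) encodes duodenal cytochrome b, the brush border ferric reductase. Its counts were 44.0, 44.7, 39.0, 41.6 and 39.3 CPM in WT1 to WT5. The KO mice, KO6 to KO10, had 43.1, 39.3, 38.5, 45.4 and 38.4 CPM. The genotypes lay on top of each other, with means of 41.7 ± 2.63 CPM in WT and 41.0 ± 3.16 CPM in KO. The log2 fold change was -0.020 (SE 0.0822, 95% interval -0.19 to 0.15, edgeR adjusted p = 0.887).

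Slc40a1 (ENSMUSG00000025993, chromosome 1, 45908070 to 45926532) encodes ferroportin, the basolateral iron exporter. Its counts were 26.5, 25.3, 19.96, 31.9 and 26.1 CPM in WT1 to WT5. For KO6 to KO10 the values were 18.0, 20.6, 23.2, 25.6 and 23.3 CPM. KO6 alone was below every WT mouse. The means were 25.9 ± 4.24 CPM in WT and 22.1 ± 2.89 CPM in KO, a log2 fold change of -0.23 (SE 0.124, 95% interval -0.49 to 0.032, edgeR adjusted p = 0.236). Without WT4 it was -0.15, and without WT3 it was -0.31.

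Tfrc (ENSMUSG00000022797, chromosome 16, 32608896 to 32632794) encodes transferrin receptor 1, through which enterocytes take up transferrin-bound iron from the blood side. Its counts were 38.8, 43.2, 45.4, 43.1 and 43.6 CPM in WT1 to WT5. KO6 to KO10 had 35.1, 42.6, 44.0, 39.2 and 30.3 CPM. KO6 and KO10 were below every WT mouse, and the other 3 lay among them. The means were 42.8 ± 2.42 CPM in WT and 38.3 ± 5.62 CPM in KO, a log2 fold change of -0.16 (SE 0.0971, 95% interval -0.36 to 0.042, edgeR adjusted p = 0.282). Without KO10 it was -0.093, and without KO8 it was -0.22.

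Fth1 (ENSMUSG00000024661, chromosome 19, 9980600 to 9985111) encodes the ferritin heavy chain, the ferroxidase subunit of the iron storage shell. Its counts were 133, 123, 136, 120 and 130 CPM in WT1 to WT5. The values of KO6 to KO10 were 116, 127, 123, 107 and 98.1 CPM. KO6, KO9 and KO10 were below every WT mouse. The means were 128 ± 6.63 CPM in WT and 114 ± 11.7 CPM in KO, a log2 fold change of -0.17 (SE 0.0810, 95% interval -0.34 to 0.0017, edgeR adjusted p = 0.185, exact p = 0.0556). Processed copies of Fth1 are found elsewhere in the genome, and how reads that match several places were counted is not given in the sources used here, so its counts are uncertain.

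Ireb2 (ENSMUSG00000032293, chromosome 9, 54862658 to 54912534) encodes iron regulatory protein 2, which binds the messenger RNAs of Tfrc, Fth1, Slc11a2 and Slc40a1. Its counts were 24.1, 30.7, 30.5, 26.0 and 26.4 CPM in WT1 to WT5. In KO6 to KO10 they were 20.2, 26.2, 26.6, 22.6 and 20.6 CPM. KO6, KO9 and KO10 were below every WT mouse, as they were for Fth1. The means were 27.6 ± 2.90 CPM in WT and 23.2 ± 3.01 CPM in KO, a log2 fold change of -0.24 (SE 0.108, 95% interval -0.47 to -0.014). Its unadjusted p of 0.0386 in edgeR was the lowest of the 7, with an adjusted p of 0.160 and an exact p of 0.0714.

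Epas1 (ENSMUSG00000024140, chromosome 17, 86753864 to 86833410) encodes HIF-2 alpha, the transcription factor of the duodenal response to low iron. Its counts were 132, 125, 128, 116 and 108 CPM in WT1 to WT5. The KO mice, KO6 to KO10, had 101, 136, 133, 121 and 121 CPM. The lowest and the highest value of all 10 mice were both in KO. The means were 122 ± 9.65 CPM in WT and 123 ± 13.8 CPM in KO, a log2 fold change of 0.012 (SE 0.0881, 95% interval -0.17 to 0.20, edgeR adjusted p = 0.937).

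**Figure D2:**
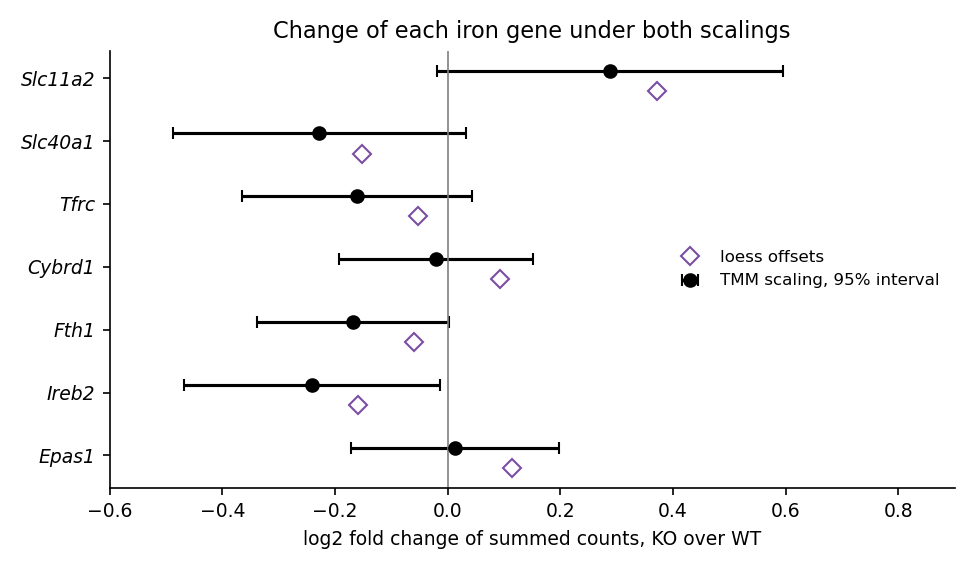
Log2 fold change (KO over WT, horizontal axis) of the summed counts of the 7 genes; filled circles with 95% intervals use TMM scaling and open diamonds use loess offsets against abundance. With loess offsets every value moves to the right, and that of Cybrd1 crosses 0, to 0.093.

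Of the 7 gene sums, 5 were lower and 2 higher in KO, with a median log2 fold change of -0.16, while over all 36715 gene sums the median was -0.0037. Over all gene sums the fold change varied with abundance. In the lowest of 20 abundance bins of all gene sums, the median was 0.36 and 19.4% were lower in KO, and in the highest bin the median was -0.12 and 84.7% were lower. Across the 10133 gene sums within the abundance range of the 7 genes, the median was -0.12, 81.5% were lower in KO and 25.9% had an unadjusted p under 0.05 in that direction. The 5 lower genes of 7 stand beside that share. Slc11a2 was above the 90th percentile of its abundance bin (0.18), and the other 6 lay between the 10th and the 90th percentile of theirs.

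With loess offsets, which remove the trend with abundance within each mouse, Slc11a2 had a log2 fold change of 0.37 (unadjusted p = 0.0264, edgeR adjusted p = 0.194). On that scaling Slc40a1 was at -0.15, Tfrc at -0.052, Fth1 at -0.061 and Ireb2 at -0.16. Cybrd1 was at 0.093 and Epas1 at 0.11. Slc11a2 was the 1 gene of the 7 with an unadjusted p under 0.05 under loess offsets, beside 19.6% of all gene sums, and Ireb2 had an unadjusted p of 0.135 there. The direction of Slc11a2, Slc40a1, Tfrc, Fth1 and Ireb2 was the same under TMM, total counts, DESeq2 and loess scaling, that of Cybrd1 turned under loess offsets, and that of Epas1 under DESeq2.

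**Figure D3:**
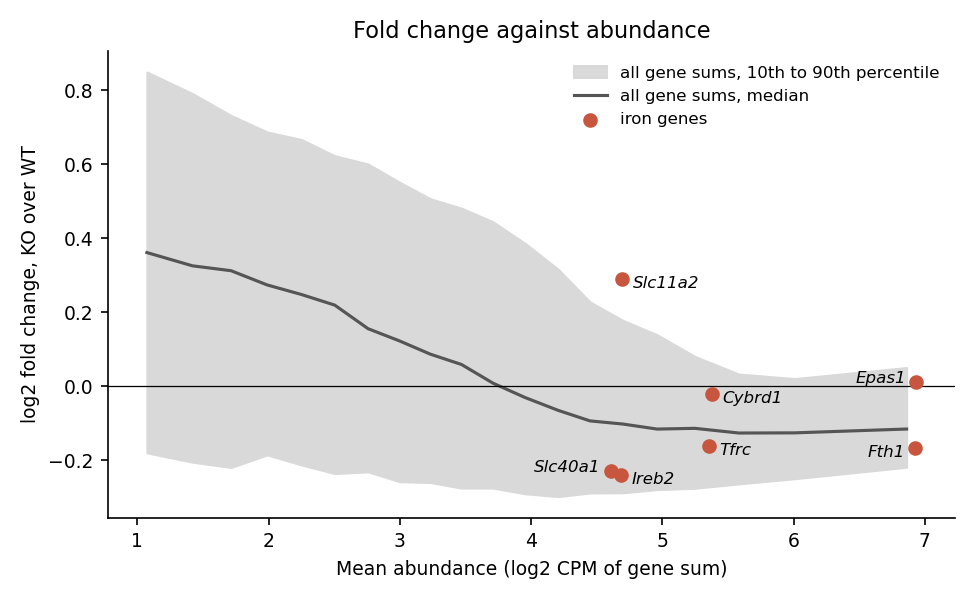
Log2 fold change (KO over WT, vertical axis) against mean abundance (log2 CPM, horizontal axis) of gene sums; the grey band spans the 10th to 90th percentile of 20 abundance bins, the line is their median and red points are the 7 genes. Slc11a2, at 0.29, lies above the band, and the median falls from 0.36 to -0.12 with abundance.

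Single peaks were then examined. Of the 56 peaks, 37 passed the filter on low counts, namely all 3 of Slc11a2, 3 of 4 of Slc40a1, 3 of 6 of Tfrc, 7 of 13 of Cybrd1, all 8 of Fth1, all 3 of Ireb2 and 10 of 19 of Epas1. The other 19 had at most 22 counts in any mouse. Without the filter, 2 of these 19, Epas1 peaks 16 and 17, had unadjusted p-values of 0.0421 and 0.0162 in edgeR and adjusted p-values of 0.344 and 0.256, both higher in KO. In that fit 13.8% of all 245885 peaks had an unadjusted p under 0.05 in either direction. In edgeR 0 of the 37 passed an adjusted p of 0.05, with 4 at an unadjusted p under 0.05. The percentage of all 80700 tested peaks that passed was 0 in edgeR, and 1522 passed with DESeq2. DESeq2 gave an adjusted p for 16 of the 37, the lowest at 0.0919. At an unadjusted p under 0.05, 2 of the 37 were higher and 2 lower in KO, against 10.3% and 5.59% of all peaks. With all mice and the same filter, this even split held with TMM only: 1 was higher and 3 lower with total counts and with loess offsets, and 1 higher and 4 lower with DESeq2, beside 18.9%, 13.6% and 18.1% of all peaks in either direction. With TMM and 1 mouse left out, 1 to 4 were higher and 1 to 2 lower, with 4 higher and 1 lower without WT1. The share of all peaks under 0.05 in either direction ran from 12% without WT5 to 18.9% without WT2. Without WT1 it was 16.8%. None of the 37 had the genotypes fully separated, where 1.83% of all peaks had every KO mouse above and 1.18% every KO mouse below.

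TMM factors were computed separately for gene sums and for peaks, for example 1.07 and 1.13 in WT5 and 0.995 and 0.934 in KO6. Fold changes of sums and of peaks are therefore not on the same scale. Of the 37 peaks, 18 were higher and 19 lower in KO, with a median log2 fold change of -0.0034, beside -0.0025 over all peaks. This split followed the scaling: it was 11 and 26 with total counts and 10 and 27 with DESeq2, where the median over all peaks shifted to -0.098 and -0.14, and 15 and 22 with loess offsets. By gene, all 3 peaks of Slc11a2 were higher, all 3 tested of Slc40a1 and all 3 of Ireb2 were lower, 7 of 8 of Fth1 were lower, 2 of 3 of Tfrc were lower, 5 of 7 of Cybrd1 were higher and 8 of 10 of Epas1 were higher. The signs of the Slc11a2, Slc40a1 and Ireb2 peaks held with total counts, DESeq2 and loess offsets. Of the Cybrd1 peaks, 2 of 7 were higher with total counts and with DESeq2 and 4 of 7 with loess offsets, and of the Epas1 peaks 6, 5 and 5 of 10 were higher. Under each of these scalings all 3 Tfrc peaks were lower, and 8, 8 and 5 of the 8 Fth1 peaks were. These are signs of fitted values, most of which lay within their error.

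**Figure D4:**
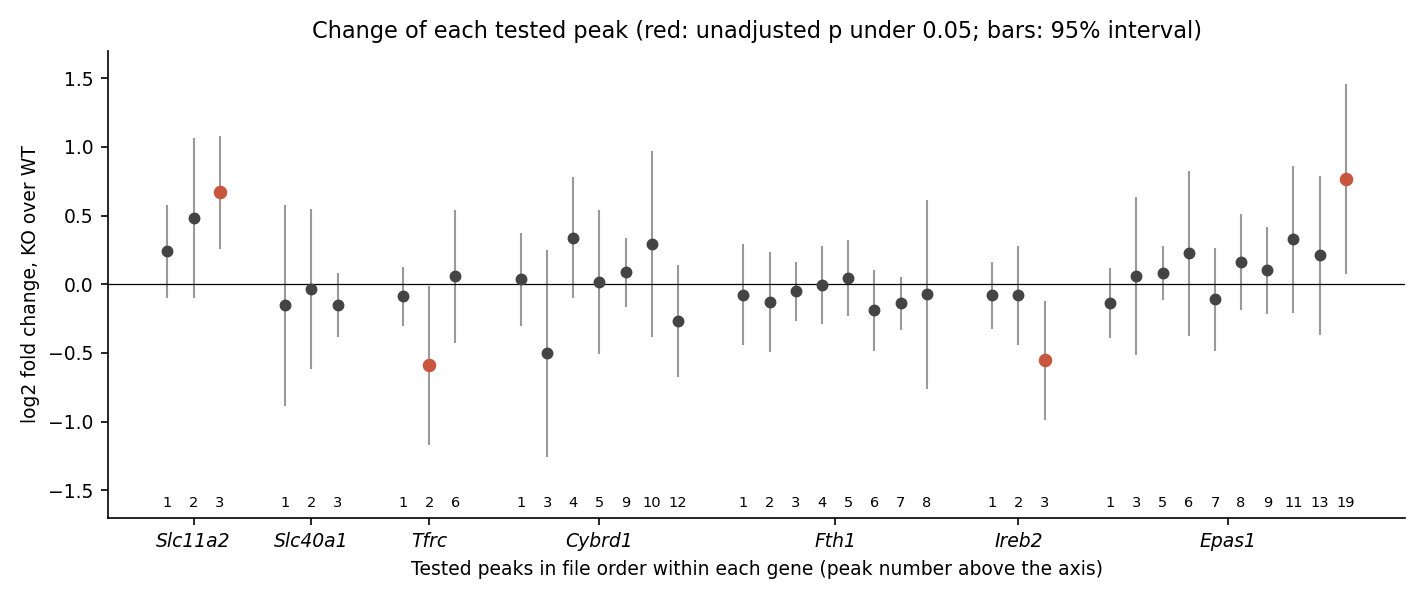
Log2 fold change (KO over WT, vertical axis) with its 95% interval for each of the 37 tested peaks, in file order within each gene; red marks the 4 peaks at an unadjusted p under 0.05. The intervals of most peaks include 0, and the red points are peak 3 of Slc11a2, peak 2 of Tfrc, peak 3 of Ireb2 and peak 19 of Epas1.

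Slc11a2 peak 3 had 8.63, 5.43, 4.29, 4.08 and 5.36 CPM in WT1 to WT5. For KO6 to KO10 the values were 9.61, 9.92, 9.28, 6.66 and 8.41 CPM. KO6, KO7 and KO8 were above every WT mouse, and all 5 KO mice were above every WT mouse but WT1. The means were 5.56 ± 1.82 and 8.78 ± 1.31 CPM, a log2 fold change of 0.67 (SE 0.197, unadjusted p = 0.00294, edgeR adjusted p = 0.110, exact p = 0.0238). Over the alternatives the log2 fold change of this peak ran from 0.52 without a filter to 0.87 without WT1, with edgeR adjusted p-values of 0.226 and 0.0580 there. The other peaks of the gene, peak 1 and peak 2, had log2 fold changes of 0.24 and 0.48 with edgeR adjusted p-values of 0.493 and 0.413, and 0.175 and 0.194 without WT1.

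Ireb2 peak 3 had 3.66, 5.84, 5.09, 4.20 and 4.68 CPM in WT1 to WT5. KO6 to KO10 had 3.56, 3.93, 3.37, 2.34 and 2.59 CPM. All KO mice but KO7 were below every WT mouse. The means were 4.69 ± 0.834 and 3.16 ± 0.671 CPM, a log2 fold change of -0.55 (SE 0.208, unadjusted p = 0.0153, edgeR adjusted p = 0.197, exact p = 0.0159). The counts behind it were 12 to 83 per mouse. Peaks 1 and 2 of Ireb2 had log2 fold changes of -0.081 and -0.078.

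Tfrc peak 2 had 2.88, 1.81, 2.30, 2.04 and 2.09 CPM in WT1 to WT5. The values of KO6 to KO10 were 1.42, 2.25, 1.52, 1.08 and 1.08 CPM. All KO mice but KO7 were below every WT mouse, on 5 to 37 counts per mouse. The log2 fold change was -0.59 (SE 0.276, unadjusted p = 0.0459, edgeR adjusted p = 0.303, exact p = 0.0317). With 1 mouse left out, its unadjusted p in edgeR ran from 0.0148 without KO7 to 0.108 without WT1. It was under 0.05 only without WT2, WT4 or KO7. The main Tfrc peak, peak 1, had 33.6 ± 2.68 CPM in WT and 31.5 ± 4.15 CPM in KO, a log2 fold change of -0.087 (edgeR adjusted p = 0.728).

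Epas1 peak 19 had 3.92, 0.805, 2.60, 1.80 and 1.30 CPM in WT1 to WT5. In KO6 to KO10 it had 1.96, 4.12, 3.37, 4.68 and 3.67 CPM. The genotypes overlapped widely, since WT1 was above 3 KO mice and KO6 below 2 WT mice. The log2 fold change was 0.77 (SE 0.330, unadjusted p = 0.0313, edgeR adjusted p = 0.261, exact p = 0.0794). The unadjusted p of this peak was 0.0556 with total counts and 0.0684 with loess offsets in edgeR, and 0.0759 in DESeq2. The strongest Epas1 peak, peak 5, had 52.4 ± 5.08 CPM in WT and 55.3 ± 4.59 CPM in KO, a log2 fold change of 0.082 that turned negative with total counts and DESeq2.

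**Figure D5:**
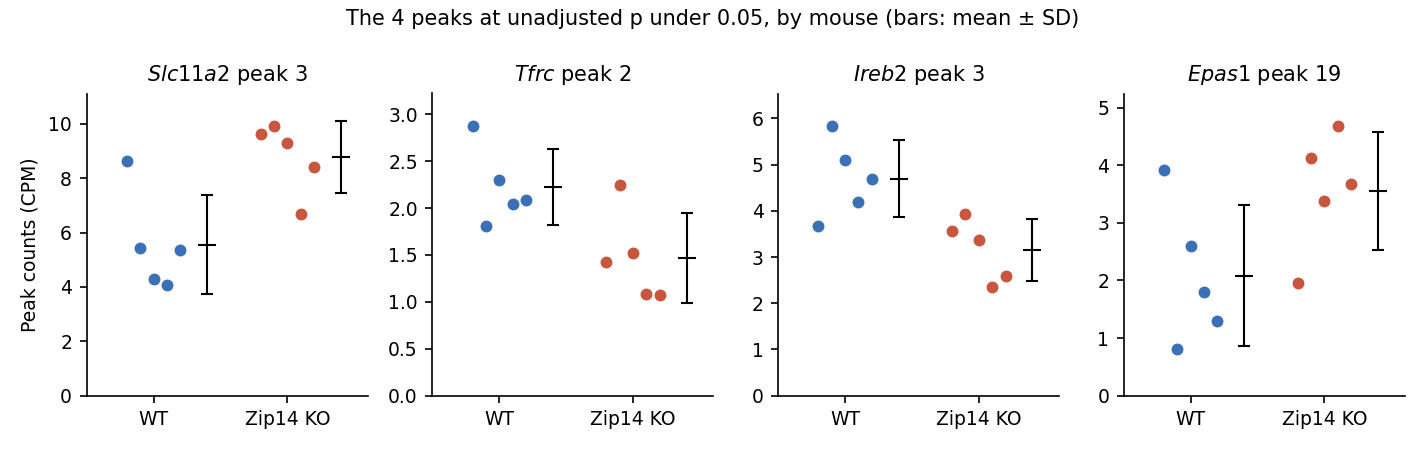
Counts (CPM, vertical axes from 0) of the 4 peaks with an unadjusted p under 0.05 in 5 WT and 5 KO mice; points are mice in label order and bars are mean ± SD. WT1 is the highest WT mouse in Slc11a2 peak 3, Tfrc peak 2 and Epas1 peak 19.

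With TMM scaling and the filter, the remaining peaks had unadjusted p-values above 0.05 in edgeR. Without the filter, Fth1 peaks 6 and 7 and Slc40a1 peak 3 had unadjusted p-values of 0.0286, 0.0232 and 0.0339, with adjusted p-values of 0.304, 0.285 and 0.321. That fit has its own TMM factors, and 13.8% of all its peaks were under 0.05. The log2 fold changes of these peaks were -0.35, -0.29 and -0.30 there, against -0.19, -0.14 and -0.15 with the filter. In Fth1 the log2 fold changes ran from -0.19 at peak 6 to 0.043 at peak 5, and the strongest, peak 3, had 34.9 ± 3.17 CPM in WT and 33.6 ± 4.27 CPM in KO. Fth1 peak 7, with 29.8 ± 2.08 CPM in WT and 27.0 ± 2.20 CPM in KO, had the lowest unadjusted p of the gene, 0.150 in edgeR, and 0.0138 in DESeq2 (log2 fold change -0.28, adjusted p = 0.0919). In Cybrd1 they ran from -0.50 at peak 3, on 2 to 33 counts per mouse, to 0.34 at peak 4, with an unadjusted p of 0.0248 for peak 3 under loess offsets, and the strongest, peak 9, had 13.1 ± 1.01 CPM in WT and 13.9 ± 1.76 CPM in KO. In Slc40a1 the strongest, peak 3, had 18.3 ± 1.83 CPM in WT and 16.5 ± 1.81 CPM in KO (log2 fold change -0.15, unadjusted p = 0.193 in edgeR and 0.0380 in DESeq2). Peak 1 of Slc40a1 varied most among the tested WT peaks of that gene, from 0.799 CPM in WT3 to 5.76 CPM in WT4.

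The distribution of counts among the peaks of a gene was compared as the share of the gene's counts in its strongest peak, which does not depend on the scaling between libraries. In Slc11a2, peak 1 held 66.8% ± 3.99 of the counts in WT and 60.4% ± 2.80 in KO (SD, n = 5 each), with an exact permutation p of 0.0238. It was the 1 gene of the 7 with an exact p under 0.05 in this measure, and the p was not adjusted for the 7 tests. The shares in WT and KO were 61.9% ± 2.11 and 65.3% ± 3.11 for Ireb2 peak 1 (exact p = 0.0952) and 80.6% ± 3.09 and 80.1% ± 2.69 for Tfrc peak 1 (exact p = 0.849). In Slc40a1, Cybrd1, Fth1 and Epas1 the exact p ran from 0.683 to 0.881.

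Across the 10 mice, the summed log2 CPM of Tfrc followed that of Ireb2 most closely among the 21 pairs of the 7 genes, with a Pearson r of 0.87 and a Spearman rho of 0.89. The r was 0.83 after the mean of each genotype was removed, 0.70 with loess offsets and 0.81 without the 2 mice farthest from the Tfrc median. Tfrc and Fth1 had an r of 0.79 and a rho of 0.62, with an r of 0.70 within genotypes, 0.57 with loess offsets and 0.41 without the 2 farthest mice. Fth1 and Ireb2 had an r of 0.71 and a rho of 0.61, falling to 0.20 with loess offsets. Slc11a2 ran opposite to Ireb2 (r = -0.63, rho = -0.64) and to Tfrc (r = -0.60, rho = -0.77), with an r of -0.45 and -0.46 within genotypes. All genes of a mouse share its library, depth and scaling, and these correlations are given as a description with no test.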

How the data were processed

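ATAC-seq of sorted IECs from 5 WT and 5 Zip14 KO mice was analysed, with genotype taken from the labels. The authors deposited raw counts per peak for 1 peak set common to all mice, on build mm10 per the labels, and a normalized signal per mouse, obtained from the counts with 1 scaling factor for each library. The aligner, the peak caller, the rule that gave peaks their gene IDs and the handling of duplicate or multiply mapped reads are not given in the sources used here, and a gene sum depends on them. The 7 genes and the lists were chosen with earlier results of these data known.

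Of 246501 rows, 22 empty ones and 594 peaks with no gene ID, at most 0.965% of a library's counts, were left out. Raw counts were summed per gene ID. Gene IDs were placed by their runs in the file between 204 genes whose ID and symbol the study pairs, with 1 of 184 neighbour pairs out of order. Coordinates are those of RefSeq GRCm38.p6. Sums and peaks that passed filterByExpr by genotype were tested with edgeR 4.0.16 (glmQLFit and glmQLFTest, TMM, R 4.3.3) and Benjamini-Hochberg adjustment over all features tested. The log2 CPM for exact two-sided permutation tests over 252 labelings used a prior count of 2. Alternatives were DESeq2 1.42.0, total counts, loess offsets (span 0.3), other filters, 1 surrogate variable (sva 3.50.0), the strongest peak alone, a prior count of 0.5 and leaving out each mouse. The text names the 7 genes and every peak of them that passed the filter, by value or by count. The 36 other iron genes and 38 cell type markers planned, and genes of similar pattern outside the 7, could not be paired with gene IDs and were not analysed here. Of 14 groups of 5 values examined for a single distant mouse, 0 passed Dixon's critical gap of 0.71.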

Additional observations from a re-analysis of the deposited data

How the results depend on the processing

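Compared with the reported fit, 0 of the 7 gene sums passed an adjusted p of 0.05 with any other scaling, filter or tool, and 1 did, Slc11a2, when WT1 was left out, so the range without 1 mouse was 0 to 1. None of the member peaks passed with total counts, loess offsets, either other filter, DESeq2 or any 1 mouse left out (the surrogate variable was run on gene sums only), with DESeq2 giving an adjusted p for 16 of 37. The exact test had 0 genes at an unadjusted p under 0.05 with a prior count of 0.5 and 0 to 2 without 1 mouse: Slc11a2 without WT1, Slc40a1 without WT3, Fth1 without WT4, KO7 or KO8, and Ireb2 without KO8. These p-values were not adjusted for the 7 genes, and the share of all gene sums under 0.05 in the exact test was not computed. Over all gene sums, 1434 passed, against 890 with total counts, 303 with loess offsets, 2359 with DESeq2, 187 with 1 surrogate variable, and 0 to 3310 without 1 mouse. The count was 1272 without WT1, 0 without WT3, WT5, KO6, KO9 or KO10, 342 without WT4, 867 without KO8, 2235 without KO7 and 3310 without WT2. Over all peaks, 0 passed in edgeR, against 373 without a filter, 836 with at least 10 counts in every mouse, 1522 with DESeq2, and 0 to 1941 without 1 mouse, highest without WT2. Log2 fold changes that were not called and changed sign are given next, and the cause was not tested. With loess offsets they were 0.093 for Cybrd1 (sum), -0.021 for Tfrc peak 6, -0.11 for Epas1 peak 3, -0.026 for Epas1 peak 6, -0.028 for Epas1 peak 13, 0.0094 for Fth1 peak 3, 0.064 for Fth1 peak 4 and -0.21 for Cybrd1 peak 5. With DESeq2 they were -0.0094 for Epas1 (sum), -0.077 for Tfrc peak 6, -0.083 for Epas1 peak 3, -0.049 for Epas1 peak 5, -0.031 for Epas1 peak 9, -0.10 for Fth1 peak 5, -0.10 for Cybrd1 peak 1, -0.13 for Cybrd1 peak 5 and -0.052 for Cybrd1 peak 9. With 1 surrogate variable the value was -0.037 for Epas1 (sum). With total counts they were -0.043 for Tfrc peak 6, -0.031 for Epas1 peak 3, -0.0050 for Epas1 peak 5, -0.054 for Fth1 peak 5, -0.062 for Cybrd1 peak 1, -0.088 for Cybrd1 peak 5 and -0.0039 for Cybrd1 peak 9. With no filter on low counts they were -0.10 for Tfrc peak 6, -0.10 for Epas1 peak 3, -0.069 for Epas1 peak 5, -0.048 for Epas1 peak 9, -0.12 for Fth1 peak 5, -0.12 for Cybrd1 peak 1, -0.15 for Cybrd1 peak 5 and -0.071 for Cybrd1 peak 9. With a minimum of 10 counts in every mouse the value was 0.023 for Fth1 peak 4. With the strongest peak alone, peak 9, the value was 0.087 for Cybrd1 (sum), taken from the peak fit with its own TMM factors. With total counts that peak was at -0.0039 and the sum at -0.022, so this change of sign mixes the choice of peak with the scaling. Without 1 mouse the values crossed 0 in the ranges -0.054 to 0.00046 for Cybrd1 (sum), -0.032 to 0.073 for Epas1 (sum), -0.44 to 0.0056 for Slc40a1 peak 1, -0.22 to 0.094 for Slc40a1 peak 2, -0.075 to 0.17 for Tfrc peak 6, -0.050 to 0.28 for Epas1 peak 3, -0.026 to 0.18 for Epas1 peak 9, -0.19 to 0.021 for Fth1 peak 1, -0.12 to 0.0034 for Fth1 peak 3, -0.069 to 0.084 for Fth1 peak 4, -0.024 to 0.11 for Fth1 peak 5, -0.28 to 0.14 for Fth1 peak 8, -0.086 to 0.13 for Cybrd1 peak 1, -0.14 to 0.091 for Cybrd1 peak 5 and -0.19 to 0.0053 for Ireb2 peak 2. No paired analysis was possible because no replicate number occurs in both genotypes. The lists of other iron genes and of cell type markers were not run. Depth limits the single peaks, of which 19 did not pass the filter on low counts.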
